A study of Mus musculus with 12 samples.

Results

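The PYHIN family genes of the mouse were examined in follicular (FO) B cells of the spleen: Ifi203, Ifi204, Ifi205, Ifi207, Ifi208, Ifi209, Ifi213, Ifi214, Mndal and Aim2. They were taken by gene symbol, which gave 10 of the 22561 genes in the count table. Of these 10, 9 passed a filter on low counts that kept 9431 genes for testing, and Ifi205 did not. RNA came from FO B cells of C57BL6 mice aged 10 weeks, with 3 samples in each of 4 groups. The first was unstimulated, and the others received a stimulus over 12 h, which was IFNα (a type I interferon), CpG (a DNA oligonucleotide sensed by TLR9) or CpG plus IFNα. No engineered allele is named in the labels. The sources used here do not say whether the unstimulated group also spent 12 h in culture, so stimulus and culture cannot be told apart in comparisons with them, nor do they say whether the 3 samples of a group came from separate animals, so p-values measure the spread between these samples.

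PYHIN proteins join a pyrin domain, which binds other pyrin domains, to a HIN domain, which binds DNA. The best known member is AIM2, which binds double-stranded DNA in the cytosol and recruits the adaptor ASC (encoded by Pycard) to form an inflammasome that activates caspase-1. IFI204 has been described as a DNA sensor that acts through STING, the adaptor that leads to type I interferon. Most other mouse members are known mainly as interferon-inducible genes, which gave them their Ifi symbols, and they lie side by side as copies of one another.

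All 10 genes lie within 680932 bases of chromosome 1 (GRCm38, chr1:173350879-174031810). Aim2 stands at one end (173350879 to 173466040, plus strand) and Ifi205 at the other (174011998 to 174031810, minus strand). Between them follow Ifi214 (173519717 to 173535957), Ifi213 (173566283 to 173599274), Ifi209 (173630917 to 173647928), Ifi208 (173673675 to 173698395), Ifi207 (173723427 to 173741747), Ifi204 (173747293 to 173766943), Mndal (173849126 to 173942491) and Ifi203 (173920407 to 173942672). Ifi209 and Ifi208 lie on the plus strand and the other 6 on the minus strand. The annotated body of Mndal overlaps that of Ifi203, and the genes share 37 exonic bases on the same strand.

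The members fell into sets of close copies by the proteins translated from their longest annotated coding sequences. Ifi208 and Ifi213 were 93.7% identical over 586 aligned residues, and Ifi209 and Ifi214 were 93.6% identical over 393. Ifi204 and Ifi205 were 82.9% identical over 404 residues. Mndal and Ifi203 were 54.2% identical along their length but 94.4% identical over the N-terminal 90 residues, the end that holds the pyrin domain. Aim2 had no close copy, with between 21.9% and 39.0% identity to the others. A local alignment of the remaining 264 residues of Aim2, which hold its HIN domain, covered between 178 and 251 residues in 7 of the other members but only 37 residues in Ifi208 and 19 in Ifi213.

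Close copies limit how exactly reads can be assigned, and the settings for reads that match several genes are not given in the sources used here. Windows of 81 bases, the length read from the transcripts, were therefore searched for exact matches in the transcripts of other genes. Aim2 shared 0 windows with any other gene. Ifi209 shared 21.3% of its windows, all of them with Ifi214, and 29.1% within the last 1000 bases of its transcripts, the stretch from which counts near the 3′ end mostly come. Ifi214 shared 17.5% of its windows there, Mndal 11.3%, Ifi213 9.39%, Ifi208 9.20%, Ifi207 3.15% and Ifi203 2.21%. Ifi204 shared 12.6% over its whole length and 0 in the last 1000 bases. Ifi205 shared 36.8% of its windows near the 3′ end, and over its whole length the gene sharing most with it was Ifi211, a PYHIN gene that was not among the 10 members.

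**Figure D1:**
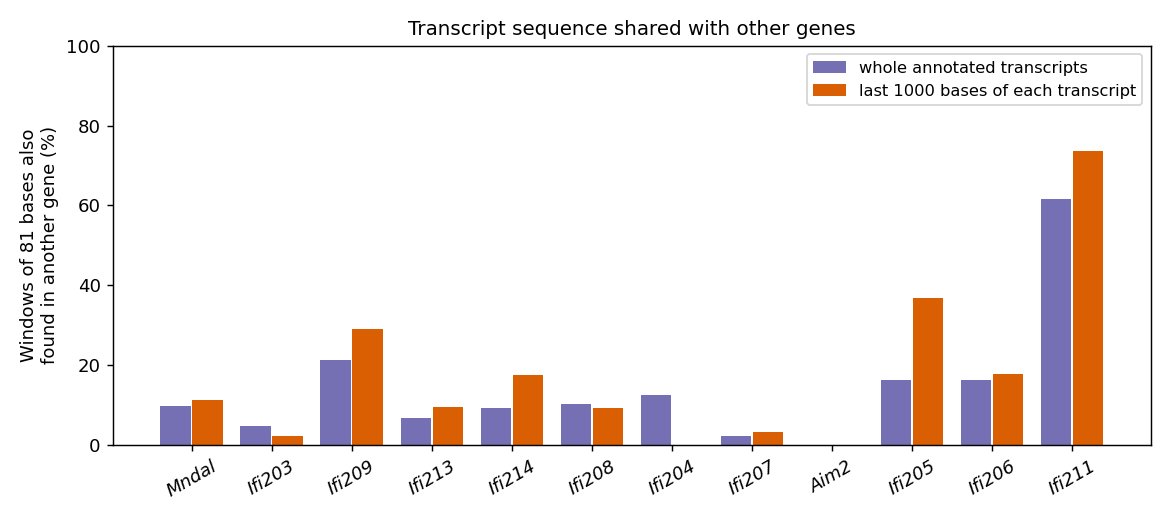
Share of 81-base windows of each gene's annotated transcripts (GENCODE M21) that also occur in another gene, in percent, over whole transcripts and over their last 1000 bases, for the 10 members and the related genes Ifi206 and Ifi211. Aim2 has no shared window, Ifi205 has the highest share of the 10 members near the 3′ end (36.8%), and Ifi211 reaches 73.6%.

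The promoters were compared because most members moved together. RefSeq promoters (GRCm38.p6, 250 bases before to 50 after each start site) were at hand for 9 members, all but Ifi204. The core of the interferon-stimulated response element (ISRE), a sequence bound by interferon-activated factors, was searched on both strands as 2 GAAA runs separated by any 2 bases. It was found in 7 of these 9 members, against 3.44% of all 32851 promoters. In 6 of the 7 (all but Ifi205) the match read GAAATCGAAA and stood between 35 and 79 bases before a start site. That exact sequence occurred in 16 promoters of the table, of which 7 belonged to PYHIN genes, the seventh being Ifi206. The stretches around it are shown 5′ to 3′ on the strand of each gene, with the 10 aligned bases in capitals, because they show both the shared core and the copies.
Ifi213 (chr1:173599311-173599370): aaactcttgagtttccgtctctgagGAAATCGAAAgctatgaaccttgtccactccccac
Ifi208 (chr1:173673582-173673641): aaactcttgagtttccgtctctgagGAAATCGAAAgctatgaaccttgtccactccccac
Ifi214 (chr1:173536002-173536061): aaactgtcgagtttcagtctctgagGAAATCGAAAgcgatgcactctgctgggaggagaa
Ifi209 (chr1:173630755-173630814): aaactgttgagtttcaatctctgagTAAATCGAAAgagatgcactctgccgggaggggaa
Mndal (chr1:173880189-173880248): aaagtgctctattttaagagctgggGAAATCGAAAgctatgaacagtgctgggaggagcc
Ifi203 (chr1:173942493-173942552): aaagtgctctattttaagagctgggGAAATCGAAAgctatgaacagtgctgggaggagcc
Ifi207 (chr1:173741816-173741875): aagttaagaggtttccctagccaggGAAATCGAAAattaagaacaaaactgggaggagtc
Ifi205 (chr1:174031855-174031914): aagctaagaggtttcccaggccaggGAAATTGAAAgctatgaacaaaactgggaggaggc

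Ifi213 and Ifi208 were identical at all 60 bases shown, and so were Mndal and Ifi203. Ifi214 and Ifi209 were identical at 54 of 60, and one of the differences, G1T counted from the first capital, falls in the core of Ifi209, which therefore did not match the search. Ifi205 differed from the common core by C6T, which still matched. Read on the strand of the gene, no 10-base stretch in the promoter of Aim2 came closer than 4 mismatches to the common core. The opposite strand was searched for the ISRE core but not compared by mismatches, so a closer stretch may lie there. The whole promoter is printed because Aim2 is the member whose counts set it apart from the others.
Aim2 (chr1:173420354-173420653, plus strand): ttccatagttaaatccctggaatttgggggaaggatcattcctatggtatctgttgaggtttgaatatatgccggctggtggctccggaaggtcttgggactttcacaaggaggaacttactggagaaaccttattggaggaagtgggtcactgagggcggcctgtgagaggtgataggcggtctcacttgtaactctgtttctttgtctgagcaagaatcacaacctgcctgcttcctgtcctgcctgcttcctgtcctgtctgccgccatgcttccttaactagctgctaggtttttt
The gamma-activated core, TTC and GAA separated by any 3 bases, was found in 0 of the 9 members and in 8.30% of all promoters. A loose kappa B core, GGG and CC separated by any 5 bases, was found in 4 members (Ifi214, Ifi209, Mndal and Ifi203) and in 50.8% of all promoters, and it did not overlap the ISRE core in any of them. A match is a description of letters and not a measured binding site.

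Libraries held between 922450 and 2923865 unique molecular identifier (UMI) counts. In a chi-square comparison of counts between replicates, IFNα sample 2 (4.501 and 5.998 per degree of freedom against the other samples of its group, which gave 2.202 between them) and CpG plus IFNα sample 2 (4.48 and 6.31, against 2.67) stood apart, and they were also the deepest libraries of their groups, with 1689570 and 2923865 UMI counts. Leaving out either of them left the number of members called, given for each comparison in the paragraphs that follow, unchanged except for the interaction, which was 2 in place of 3 without CpG plus IFNα sample 2. Since each UMI marks the 3′ end of 1 transcript, levels need no correction for gene length and are compared between genes as CPM, the UMI counts scaled to a common library total after TMM normalization. All 10 B cell markers examined were detected in every group, and their summed level was between 18344 and 20940 CPM in unstimulated cells, between 17356 and 19447 with IFNα, between 6577 and 6829 with CpG and between 5874 and 5982 with CpG plus IFNα. Of 10 markers of macrophages, monocytes and granulocytes, 8 were in the table and none passed the filter. Their summed level was between 6.18 and 28.9 CPM in unstimulated cells, between 6.69 and 12.97 with IFNα, between 0.713 and 2.995 with CpG and between 0.514 and 1.64 with CpG plus IFNα, and Lyz2, Csf1r and Cd14 had 0 UMI counts in the IFNα samples, where most PYHIN genes were highest. In those samples 36 of the UMI counts of this list came from Adgre1. The 5 T and NK cell markers in the table summed to at most 1.82 CPM in any sample, and 5 plasmacytoid dendritic cell markers to between 8.55 and 51.7 CPM, with Siglech and Klk1 at 0 UMI counts in all groups. Within that list Cox6a2 was called higher than in unstimulated cells with each stimulus (log2 fold changes 3.30 with IFNα, 4.61 with CpG and 5.53 with CpG plus IFNα), and Pacsin1 fell with CpG (-4.43). With CpG 8 of the 10 B cell markers fell, and with IFNα 2 did (Fcer2a and Cr2, log2 fold changes -2.34 and -2.38). Markers of marginal zone B cells summed to between 915 and 1071 CPM in unstimulated cells, between 2327 and 2479 with IFNα, between 120 and 144 with CpG and between 303 and 358 with CpG plus IFNα, and most of that sum with IFNα was Plac8 (mean 2190 CPM). Of the 5 tested markers in that list Plac8 was the 1 that rose with IFNα, and 3 fell (Cr2 by -2.38, Dtx1 and Cd1d1 by -1.01 each). The drop of the B cell markers with CpG moved with the drop of the PYHIN genes described next, and its part in that drop was not tested. In these bulk samples, fewer cells of a type and less RNA per cell cannot be told apart.

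Most PYHIN genes rose with IFNα and fell with CpG. A gene was called changed at an adjusted p under 0.1 in edgeR's quasi-likelihood test, corrected by Benjamini-Hochberg over the 9431 genes, with an absolute log2 fold change above 1. With IFNα alone, 8 of the 9 tested members rose against unstimulated cells and 0 fell, where 4.56% of all genes tested rose and 4.07% fell. The member outside this count was Aim2. Ifi204 and Ifi207 reached the count filter only through samples with IFNα, so they could enter the test only by being high there. Of the other 7 tested members, 6 rose with IFNα, 6 fell with CpG and 6 rose with CpG plus IFNα against CpG. With CpG alone, 7 members fell and 0 rose, where 25.5% of all genes fell and 20.1% rose. The median log2 fold change of the 9 members was 3.35 with IFNα and -2.53 with CpG, and the median over all genes tested was -0.00 and -0.03. Without Ifi204 and Ifi207, the median of the other 7 members was 2.62 with IFNα and -2.96 with CpG.

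With CpG plus IFNα, most members lay between the levels of either stimulus alone. Against unstimulated cells 3 rose (Ifi204, Ifi207 and Ifi213) and 1 fell (Ifi203), where 20.3% of all genes rose and 25.6% fell, so that these counts by themselves are no result about the members. Against CpG alone, 8 of the 9 rose and 0 fell, where 2.95% of all genes rose and 2.01% fell, and Aim2 was again the exception. Against IFNα alone, 6 fell and 0 rose, where 25.5% of all genes fell and 18.7% rose. These comparisons share their samples, so their counts are not separate evidence. The median log2 fold change of the members was 0.46 against unstimulated cells, 4.19 against CpG and -2.33 against IFNα. Without Ifi204 and Ifi207, which passed the filter only through samples with IFNα, the median of the other 7 was 0.08, 2.61 and -2.54.

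**Figure D2:**
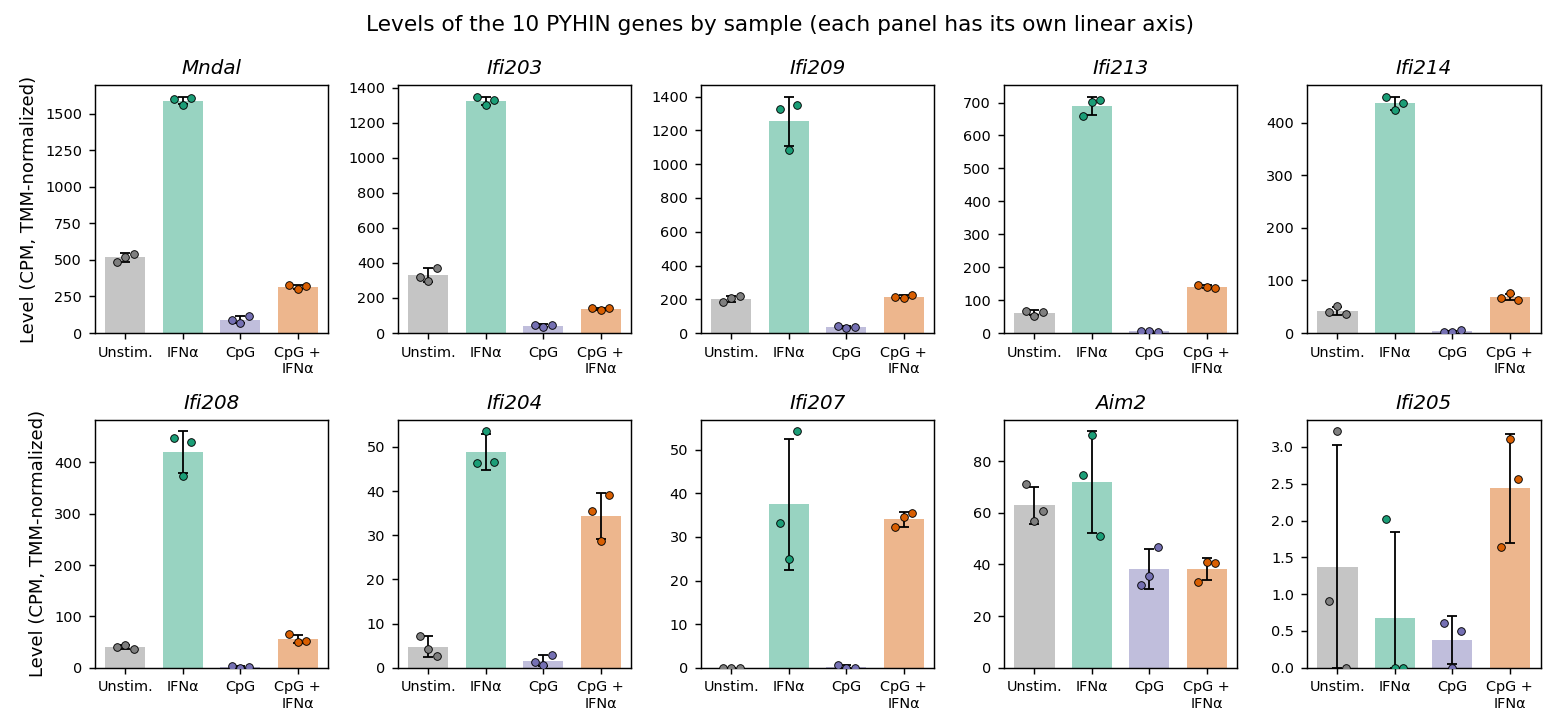
Level of each of the 10 PYHIN genes in CPM after TMM normalization, in unstimulated cells and with IFNα, CpG or CpG plus IFNα. Points are samples, bars are means of 3 samples and error bars are SD, and each panel has its own axis from 0. In 8 genes the IFNα samples are far above the unstimulated ones, whereas the IFNα samples of Aim2 (51.1 to 89.99 CPM) overlap them, and Ifi205 stays at or below 3.21 CPM in every sample.

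Mndal and Ifi203 were the most abundant members in unstimulated cells. Mndal, a relative of the human gene MNDA, measured 485, 523 and 542 CPM in the 3 unstimulated samples, 1599, 1559 and 1609 CPM with IFNα, 89.0, 72.0 and 114 CPM with CpG, and 325, 300.5 and 324 CPM with CpG plus IFNα. The 4 groups did not overlap, with CpG lowest, followed by CpG plus IFNα, unstimulated cells and IFNα. Mndal rose with IFNα (517 ± 28.9 to 1589 ± 26.3 CPM, mean ± SD, n = 3, log2 fold change 1.62 ± 0.12 SE, adjusted p = 3.46e-13) and fell with CpG (log2 fold change -2.48 ± 0.13, adjusted p = 2.88e-17). With CpG plus IFNα it was above CpG alone (1.77 ± 0.13, adjusted p = 7.48e-13) and below IFNα alone (-2.33 ± 0.12, adjusted p = 6.03e-18). Against unstimulated cells the difference of -0.71 ± 0.12 passed the p threshold but not the fold threshold (adjusted p = 2.96e-06).

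Ifi203, whose protein binds DNA through a HIN domain like that of its relatives, followed the same order of groups. Its levels were 318.5, 295 and 373 CPM in unstimulated cells, 1347, 1300.0 and 1328 CPM with IFNα, 47.3, 32.8 and 45.4 CPM with CpG, and 141, 134 and 141 CPM with CpG plus IFNα, without overlap between groups. It rose with IFNα (log2 fold change 2.01 ± 0.11, adjusted p = 7.11e-16) and fell with CpG (-2.96 ± 0.14, adjusted p = 1.47e-18). It was the single member called lower with CpG plus IFNα than in unstimulated cells (-1.25 ± 0.12, adjusted p = 4.78e-11). When the counts of Mndal and Ifi203 were summed before the test, that difference was -0.89 ± 0.12 and no longer passed the fold threshold.

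Ifi209 and Ifi214 are close copies, and Ifi209 was the more abundant in every group. Ifi209 measured 186, 205 and 221 CPM in unstimulated cells, 1326, 1085 and 1349 CPM with IFNα, 39.9, 30.65 and 34.9 CPM with CpG, and 215, 206 and 226 CPM with CpG plus IFNα. The unstimulated and the CpG plus IFNα samples overlapped (log2 fold change 0.08 ± 0.12, adjusted p = 0.571), and the other groups did not. Ifi214 was lower, with 39.1, 51.3 and 37.1 CPM in unstimulated cells, 449, 424 and 437 CPM with IFNα, 1.84, 2.14 and 4.99 CPM with CpG, and 66.0, 75.2 and 63.2 CPM with CpG plus IFNα. Here all 4 groups stood apart, and the samples with CpG plus IFNα lay above the unstimulated ones by a log2 fold change of 0.70 ± 0.16 (adjusted p = 0.000276), under the fold threshold. IFNα raised Ifi209 by a log2 fold change of 2.62 ± 0.12 (adjusted p = 1.76e-18) and Ifi214 by 3.37 ± 0.14 (adjusted p = 2.67e-19). Ifi209 and Ifi214 summed rose by 2.78 ± 0.12. CpG lowered Ifi209 by -2.53 ± 0.15 (adjusted p = 3.62e-16) and Ifi214 by -3.70 ± 0.29 (adjusted p = 4.75e-13). Ifi214 had 3, 3 and 10 UMI counts in the CpG samples, and its change with CpG was -4.33 without CpG sample 3, -4.77 with counts drawn down to the smallest library and -2.68 when summed with Ifi209.

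Ifi208 and Ifi213, whose annotated proteins had only short matches to the HIN-bearing stretch of Aim2, were among the members with the largest fold changes by IFNα. Ifi213 measured 68.2, 52.4 and 63.5 CPM in unstimulated cells, 659, 703 and 709 CPM with IFNα, 6.75, 4.99 and 2.995 CPM with CpG, and 145, 141 and 138 CPM with CpG plus IFNα. Its 4 groups did not overlap, and it was the one member of this set that was called higher with CpG plus IFNα than in unstimulated cells (1.19 ± 0.14, adjusted p = 3.17e-09). Ifi208 measured 40.0, 44.9 and 36.2 CPM in unstimulated cells, 447, 373 and 439 CPM with IFNα, and 64.9, 50.02 and 51.9 CPM with CpG plus IFNα. In the 3 CpG samples it had 7, 0 and 2 UMI counts, so its level there is known only roughly. With IFNα the log2 fold change was 3.48 ± 0.13 for Ifi213 (adjusted p = 1.27e-20) and 3.38 ± 0.16 for Ifi208 (adjusted p = 9.54e-18). With CpG it was -3.67 ± 0.24 for Ifi213 (adjusted p = 4.95e-15) and -4.43 ± 0.37 for Ifi208 (adjusted p = 2.89e-12). IFNα added to CpG raised them by 4.86 ± 0.20 (adjusted p = 2.00e-19) and 4.89 ± 0.32 (adjusted p = 5.84e-14). Without CpG sample 1, which held 7 of its 9 UMI counts in that group, Ifi208 changed by -5.90 with CpG and by 6.37 with IFNα added to CpG. When Ifi208, Ifi213 and Ifi206 were summed, the change with CpG was -3.18. The sum was called higher with CpG plus IFNα than in unstimulated cells (1.12, adjusted p = 4.95e-09), where Ifi208 alone was not (0.46).

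Ifi204 and Ifi207 were rare without IFNα, and they were the members with the smallest differences between CpG plus IFNα and IFNα alone. Ifi204, the member linked to STING signaling, had levels of 7.28, 4.28 and 2.65 CPM in unstimulated cells, 46.4, 53.5 and 46.6 CPM with IFNα, 1.23, 0.713 and 2.995 CPM with CpG, and 35.5, 28.6 and 39.1 CPM with CpG plus IFNα. The IFNα samples lay above those with CpG plus IFNα, but the log2 fold change of -0.53 ± 0.18 was under the fold threshold (adjusted p = 0.0111). Ifi204 rose with IFNα (3.35 ± 0.31, adjusted p = 1.56e-10), with CpG plus IFNα against unstimulated cells (2.82 ± 0.31, adjusted p = 1.47e-09) and with IFNα added to CpG (4.19 ± 0.34, adjusted p = 7.46e-12). The fall of Ifi204 with CpG (-1.37 ± 0.57, adjusted p = 0.0334) rested on 15 UMI counts in unstimulated cells and 9 with CpG, and samples of these groups overlapped. It was lost without unstimulated sample 1 (-0.88, adjusted p = 0.279), without CpG sample 2 (-1.05, adjusted p = 0.116) and with counts drawn down to the smallest library (-1.10, adjusted p = 0.143), and without CpG sample 3 it was -2.15 (adjusted p = 0.0102). Without that sample the rise with IFNα added to CpG was 4.99.

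Ifi207, the longest protein of the family here with 978 residues, was seen almost only where IFNα was present. It had 0, 0 and 0 UMI counts in the unstimulated samples and 1, 0 and 0 with CpG, against 33, 41 and 71 with IFNα and 59, 100 and 69 with CpG plus IFNα. In CPM these were 33.3, 24.9 and 54.2 with IFNα and 32.2, 34.5 and 35.5 with CpG plus IFNα, so the latter samples lay inside the range of the former (log2 fold change -0.12 ± 0.22, adjusted p = 0.630). A count of 0 over the 3 unstimulated libraries allows a level of up to 0.947 CPM, from 3 counts over the group. Against that limit the group level of Ifi207 was at least 38.8-fold higher with IFNα and at least 36.0-fold higher with CpG plus IFNα, where counting error alone gives 95% lower limits of 31.1 and 29.1. Against the single UMI count with CpG, the ratio with CpG plus IFNα was 172, with a 95% exact interval for counting error of 30.5 to 6819. Whether Ifi207 differed between CpG and unstimulated cells was not detectable at this depth.

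Ifi205 stayed near the limit of detection and was not tested. It had 1, 3 and 0 UMI counts in unstimulated cells, 2, 0 and 0 with IFNα, 1, 0 and 1 with CpG, and 3, 9 and 5 with CpG plus IFNα. Its mean level was highest with CpG plus IFNα (2.44 ± 0.74 CPM, n = 3), and those samples overlapped the unstimulated ones. Without the filter on low counts no comparison of Ifi205 passed the thresholds on both p and fold except CpG plus IFNα against IFNα, with a log2 fold change of 2.24 (adjusted p = 0.0554) that rests on 17 and 2 UMI counts.

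Aim2, the inflammasome sensor, was not called in any comparison. Its levels were 71.0, 56.7 and 60.9 CPM in unstimulated cells, 74.7, 89.99 and 51.1 CPM with IFNα, 31.9, 35.6 and 46.9 CPM with CpG, and 33.3, 41.1 and 40.6 CPM with CpG plus IFNα. The IFNα samples overlapped the unstimulated ones (log2 fold change 0.20 ± 0.18, adjusted p = 0.496), and the CpG plus IFNα samples overlapped those with CpG (-0.00 ± 0.19, adjusted p = 0.998). The samples with CpG, alone or with IFNα, lay below all those without it. These differences passed the p threshold but not the fold threshold, with -0.71 ± 0.19 for CpG against unstimulated cells (adjusted p = 0.00177), -0.71 ± 0.19 for CpG plus IFNα against unstimulated cells (adjusted p = 0.00118) and -0.91 ± 0.18 for CpG plus IFNα against IFNα (adjusted p = 3.07e-05). Without IFNα sample 3, the lowest of its group, the last difference was -1.09 and passed both thresholds (adjusted p = 1.85e-06), and with counts drawn down to the smallest library it was -1.01 (adjusted p = 0.000398).

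**Figure D3:**
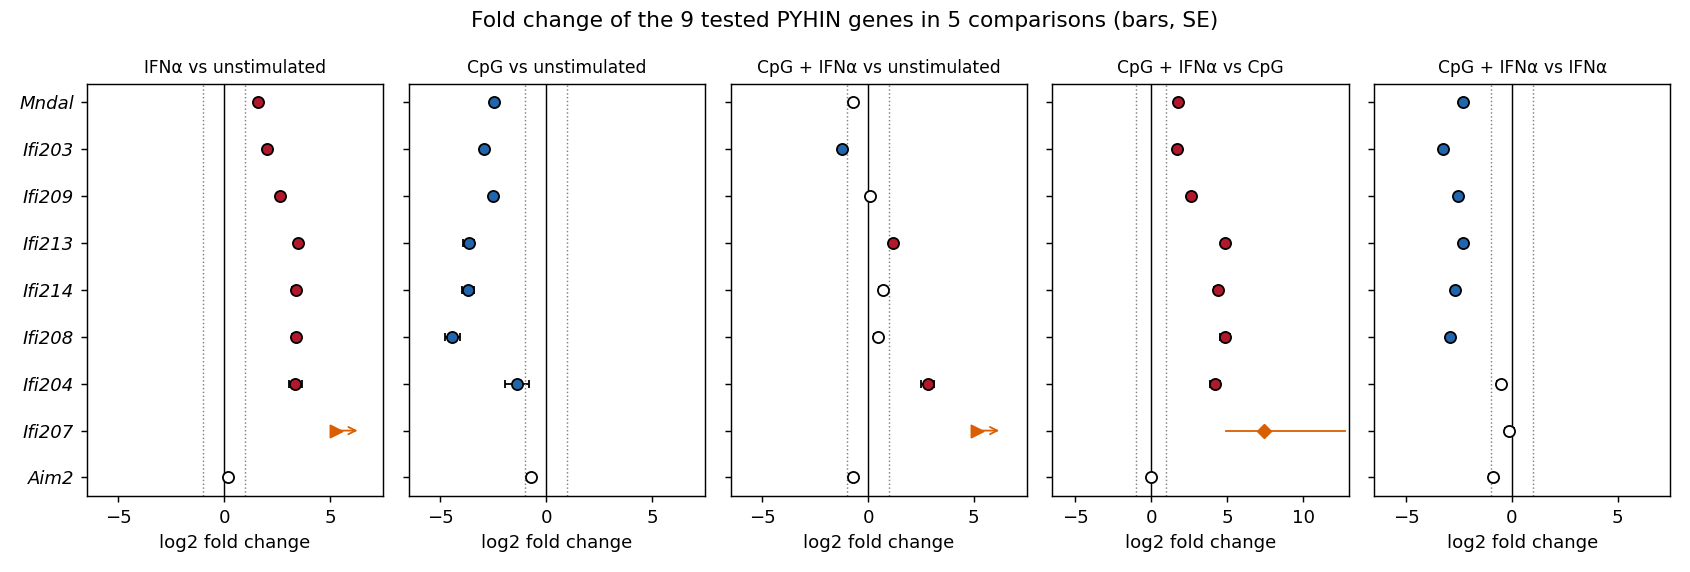
Log2 fold change of the 9 tested PYHIN genes in 5 comparisons, with SE as bars; red and blue points passed the thresholds as higher and lower, white points did not, and dotted lines mark a log2 fold change of 1 in either direction. For Ifi207, arrows mark lower bounds against 3 counts in unstimulated cells, the diamond marks the ratio to 1 UMI count with its 95% interval, and CpG against unstimulated cells is not drawn. Aim2 is white in all 5 panels, and 6 members are blue with CpG plus IFNα against IFNα.

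Whether IFNα acted differently in the presence of CpG was tested by the interaction, which is the log2 fold change by IFNα with CpG minus that without CpG. It was positive and called for 3 members, where 3.09% of all genes had a higher and 3.17% a lower interaction: Ifi208 (1.51 ± 0.48, adjusted p = 0.0422), Ifi213 (1.38 ± 0.29, adjusted p = 0.00157) and Ifi214 (1.03 ± 0.35, adjusted p = 0.0635). For these genes IFNα thus gave a larger fold from the low level in CpG than from the unstimulated level, although the level reached was lower. The interaction was 0.84 ± 0.59 for Ifi204, 0.15 ± 0.17 for Mndal, -0.01 ± 0.23 for Ifi209, -0.20 ± 0.26 for Aim2 and -0.30 ± 0.18 for Ifi203, none of which passed (adjusted p between 0.353 and 0.988). For Ifi207 no interaction can be given, since it had 0 and 1 UMI counts in the groups without IFNα.

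Of the 3 interactions, that of Ifi213 held without each of the 12 samples in turn. That of Ifi208 was lost without CpG sample 2 (1.04, adjusted p = 0.189) or CpG sample 3 (1.15, adjusted p = 0.223), and with counts drawn down to the smallest library (1.12, adjusted p = 0.246), and it was 2.99 without CpG sample 1 (adjusted p = 0.00314). That of Ifi214 was lost without unstimulated sample 2 (0.88, adjusted p = 0.138), CpG sample 1 (0.77, adjusted p = 0.255), CpG sample 2 (0.85, adjusted p = 0.203) or CpG plus IFNα sample 2 (0.94, adjusted p = 0.121), and in DESeq2 (1.09, adjusted p = 0.118), and it was 1.68 without CpG sample 3 (adjusted p = 0.0234) and 2.07 drawn down (adjusted p = 0.026). In the CpG group, these genes had 24 (Ifi213), 9 (Ifi208) and 16 (Ifi214) UMI counts in all. With the copies summed, the interaction of Ifi208, Ifi213 and Ifi206 together was 0.95 ± 0.22 (adjusted p = 0.00502), under the fold threshold, and that of Ifi209 and Ifi214 together was 0.11 ± 0.18 (adjusted p = 0.792).

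**Figure D4:**
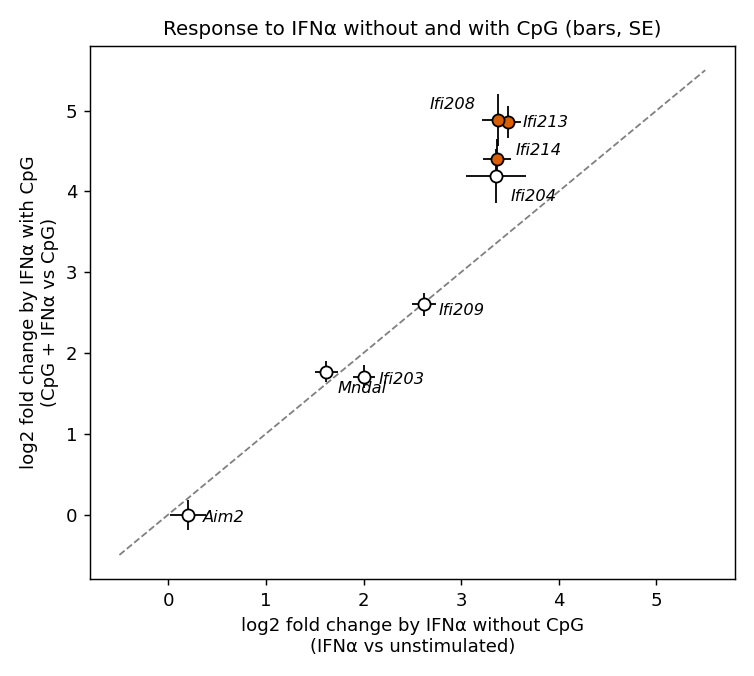
Log2 fold change by IFNα without CpG (horizontal axis, IFNα against unstimulated cells) and with CpG (vertical axis, CpG plus IFNα against CpG) for 8 members, with SE as bars. Filled points (Ifi208, Ifi213 and Ifi214) passed the interaction test and lie above the dashed line of equal response, whereas Mndal, Ifi203, Ifi209 and Aim2 lie near it. Ifi207 is not drawn because it had 0 and 1 UMI counts in the groups without IFNα.

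The summed level of the 10 genes shows the size of the shifts. It was 1216, 1236.5 and 1336 CPM in the unstimulated samples, 5983, 5612 and 6023 CPM with IFNα, 223, 179 and 254 CPM with CpG, and 1059, 1013 and 1062 CPM with CpG plus IFNα, without overlap between groups. The sum with CpG plus IFNα thus lay below that of unstimulated cells, and its makeup differed. Mndal and Ifi203 made up between 66.1% and 68.5% of the sum in unstimulated samples, between 48.8% and 50.9% with IFNα, between 58.6% and 62.9% with CpG, and between 42.8% and 44.0% with CpG plus IFNα.

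The order of the members changed between groups. In unstimulated cells it ran Mndal, Ifi203, Ifi209, Aim2, Ifi213, Ifi214, Ifi208, Ifi204, Ifi205 and Ifi207, where Aim2 and Ifi213, Ifi214 and Ifi208, Ifi204 and Ifi205, and Ifi205 and Ifi207 did not differ beyond the spread of their samples. With CpG, Aim2 followed Mndal and Ifi203 (17.4% of the sum), and Ifi203, Aim2 and Ifi209 overlapped. With IFNα, Aim2 was seventh (1.22% of the sum) and overlapped Ifi204, which overlapped Ifi207. With CpG plus IFNα, Ifi209 and Ifi213 stood above or level with Ifi203, and Ifi213 (13.5% of the sum) and Ifi203 (13.2%) did not differ beyond their spread.

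**Figure D5:**
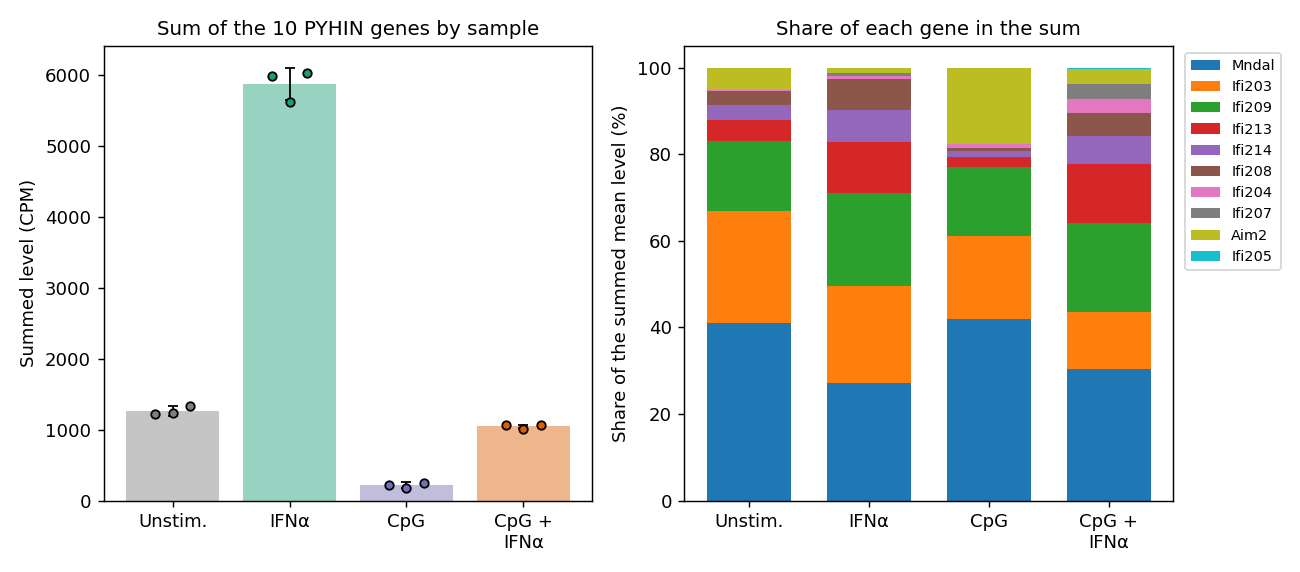
Left, summed level of the 10 PYHIN genes in CPM in each sample (points) with the mean of 3 samples (bar) and SD (error bar). Right, share of each gene in the sum of the group means, in percent. The IFNα samples lie between 5612 and 6023 CPM and the CpG samples between 179 and 254 CPM, and the share of Aim2 is largest with CpG (17.4%).

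A further 3 PYHIN genes in the table lie between the members on chromosome 1 and were not among them. Ifi206, which shares windows with Ifi208 and Ifi213, measured 74.8 ± 14.8 CPM in unstimulated cells, 699 ± 157 CPM with IFNα, 13.1 ± 3.57 CPM with CpG and 188 ± 10.0 CPM with CpG plus IFNα (n = 3 each). It rose with IFNα and fell with CpG as they did (log2 fold changes 3.21 ± 0.16 and -2.55 ± 0.24). Ifi211, 92.0% identical to Ifi204 over 425 residues, went the other way with CpG. It had 1, 1 and 1 UMI counts in unstimulated samples, 11, 11 and 16 with IFNα, 7, 4 and 10 with CpG, and 117, 149 and 113 with CpG plus IFNα. Ifi211 rose with CpG (2.05 ± 0.67, adjusted p = 0.00758), and it was called higher with CpG plus IFNα than with IFNα (2.56 ± 0.22, adjusted p = 6.25e-12), whereas none of the 9 tested members was. Ifi205, which shares windows with it, was so called only without the filter on low counts. In its transcript 61.7% of the windows also occur in other genes, chiefly Ifi205 and Ifi204, so part of its counts cannot be placed. Summed with Ifi204 and Ifi205, the difference between CpG plus IFNα and IFNα was 0.66 ± 0.15 (adjusted p = 0.000277), against -0.53 for Ifi204 alone, and that between CpG and unstimulated cells was -0.13 ± 0.40 (adjusted p = 0.783). Ifi202b, which lacks a pyrin domain and inhibits AIM2 in some strains, had 1 UMI count over all samples.

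Few genes next to the cluster could be tested. Within 1000000 bases on either side, 16 other genes were in the table and 3 passed the filter. Slamf9, a receptor of the SLAM family, rose with IFNα (log2 fold change 1.41) and fell with CpG (-1.11). Tagln2, an actin-binding protein, fell with IFNα (-1.51), and its interaction was called higher (1.24). Pigm, an enzyme of GPI anchor synthesis, was not called in any comparison. Its log2 fold changes between groups were between 0.08 and 0.52, and its interaction was -0.30.

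The partners of the PYHIN sensors were then examined in lists of genes by known role. Of each list the 2 genes with the smallest p in a direction were to be named, and Pycard, Cgas, Irf9, Ifnar1 and Ifnar2, which that rule did not name in any comparison, were chosen after their values were seen, as were values given for a gene in a comparison where it was not among those 2. The counts in these lists stand beside the shares of all genes tested, which were 4.56% higher and 4.07% lower with IFNα, 20.1% higher and 25.5% lower with CpG, and 20.3% higher and 25.6% lower with CpG plus IFNα, each against unstimulated cells, and 2.95% higher and 2.01% lower with CpG plus IFNα against CpG, and the same holds for the marker lists. Of 13 inflammasome genes, 7 were tested. With IFNα 1 rose (Casp4, a caspase that senses lipopolysaccharide, log2 fold change 1.07) and 0 fell. With CpG 4 of the 7 fell: Gsdmd, the pore-forming target of inflammatory caspases (-2.07), Nlrc4 (-1.39), Casp4 (-1.05) and Casp1 (-1.02). With CpG plus IFNα against unstimulated cells 4 fell, with Nlrc4 at -3.09, Casp1 at -1.57, Pycard, the adaptor of AIM2, at -1.45 and Gsdmd at -1.25. With IFNα added to CpG, Casp4 rose (1.74) and Nlrc4, an inflammasome sensor of bacterial proteins, fell (-1.70). The median log2 fold change of the 7 was 0.39 with IFNα and -1.02 with CpG.

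The list for the STING pathway and other cytosolic DNA sensing held 20 symbols, of which 16 were tested. Cgas and Sting1 each stood in it under an older symbol as well. With IFNα 5 rose and 0 fell, among them Irf7, a transcription factor for type I interferon genes (log2 fold change 4.83), Zbp1, a sensor of Z-form nucleic acid (3.87), and Cgas, the DNA sensor upstream of STING (2.51). With CpG 2 rose and 6 fell, shares of the list not far from those of all genes. Those that rose were Xrcc5 (1.87) and Xrcc6 (1.41), the subunits of the DNA end-binding protein Ku, and those that fell included Irf7 (-2.35), Sting1 (-1.88) and Cgas (-1.72). With IFNα added to CpG, 4 rose, with Zbp1 at 5.62 and Cgas at 3.43, and Sting1 fell (-1.16). Sting1 and Cgas thus differed with CpG plus IFNα, where against unstimulated cells Cgas was higher (1.71) and Sting1 lower (-3.04).

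All 15 genes of interferon signaling were tested. With IFNα 5 rose and 2 fell, and with CpG 0 rose and 10 fell, with a median log2 fold change of 0.35 and -1.36. The genes that fell with IFNα were Socs3, an inhibitor of cytokine signaling (-3.86), and Irf4, a transcription factor of B cell activation (-1.10), and Usp18, an inhibitor of the interferon receptor, rose (4.81). Stat2 and Irf9, transcription factors of type I interferon signaling, rose with IFNα and fell with CpG as most PYHIN genes did, Stat2 by 2.78 and -3.49 and Irf9 by 1.78 and -1.34. Irf1, which binds ISRE-like elements, fell with CpG (-4.91) and was not called with IFNα (0.76). The receptor subunit Ifnar1 fell with CpG (-1.33), and Ifnar2 was not called (-0.07).

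Among genes outside the family, those whose profile over the 12 samples was most like that of a member (Pearson's r of log2(CPM + 1), a description over samples that share 4 groups) were found for each tested member. They were Samd9l (r = 0.997) and Gm8995 (0.994) for Mndal, Tent5a (0.998) and Aida (0.995) for Ifi203, Plac8 (0.995) and B2m (0.995) for Ifi209, and Gbp9 (0.993) and Ifi27l2a (0.992) for Ifi214. For Ifi213 they were Parp14 and Selenow (both 0.996), for Ifi208 Tdrd7 (0.991) and Ddx58 (0.984), for Ifi207 Ifitm3 (0.991) and Phf11b (0.988), and for Ifi204 Isg20 (0.978) and Ogfr (0.976). Aim2 was most like mt-Nd6 (0.956) and Ccdc186 (0.948), and its r with the other tested members was between 0.04 and 0.79.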

How the data were processed

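FO B cell RNA of 12 samples was profiled by bulk RNA barcoding (BRB) sequencing, which counts UMIs at the 3′ end. The values the authors deposited are raw UMI counts, 1 column per sample. According to the submitters' processing notes and the study's methods, they used UMI-tools 1.1.2, Trim Galore 0.6.7, HISAT2 2.2.1 on GRCm38 and featureCounts 2.0.1. The annotation release is not given in the sources used here, and all 22561 gene identifiers are in GENCODE M21.

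From these counts, edgeR 4.0.16 (R 4.3.3) computed TMM factors and CPM, filtered with filterByExpr and fitted 9431 genes in 4 groups by quasi-likelihood (8 residual degrees of freedom), giving SE and adjusted p over all genes. The test was also run on simulated counts, and the outcome is not given here. The DESeq2 version was 1.42.0. Fold changes against 0 counts are bounds from 3 counts over the group, and exact intervals cover counting error only. Library totals were between 922450 and 2923865 UMI counts. Members and lists were chosen with earlier results of these data known. Beside the members, the rule named the 2 most correlated genes per member, other PYHIN genes and, in each list, the 2 genes with the smallest p in each direction. Neighbors on chromosome 1 and other list genes were named after their values were seen. Alternatives were other scalings, filters and thresholds, DESeq2, a replicate block, counts drawn down to the smallest library, leaving out each sample and, added after seeing the data, summing close copies. Proteins, planned from RefSeq, were translated from GENCODE M21 coding sequences and aligned with Biopython 1.88 (BLOSUM62), with its local alignment in place of blastp.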

Additional observations from a re-analysis of the deposited data

Results flagged for a closer look

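The interaction of CpG and IFNα was called by edgeR's quasi-likelihood test for 3 of the 9 tested members: Ifi208 (1.51 on the log2 scale, adjusted p = 0.0422), Ifi213 (1.38, adjusted p = 0.00157) and Ifi214 (1.03, adjusted p = 0.0635). Of all genes tested, 3.09% had a higher and 3.17% a lower interaction. All 3 had a larger fold with CpG than without it, and all 3 had few UMI counts in the CpG group (9, 24 and 16 in all), where Ifi208 and Ifi214 depended on single samples. With close copies summed, no sum had a called interaction. The interaction was 0.95 (adjusted p = 0.00502), under the fold threshold, for Ifi208, Ifi213 and Ifi206 together. For Ifi209 and Ifi214 together it was 0.105 (adjusted p = 0.792). With 3 samples a group, single values were not tested for outliers.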

How the results depend on the processing

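At |log2 fold change| over 2, the members called fell from 8 to 7 for IFNα and from 7 to 6 for CpG against unstimulated cells, from 8 to 6 for CpG plus IFNα against CpG, from 4 to 2 for CpG plus IFNα against unstimulated cells and from 3 to 0 for the interaction, and stayed at 6 for CpG plus IFNα against IFNα. The shares of all genes called at this stricter threshold were not computed, so these counts have no background beside them. Leaving out each sample in turn gave between 1 and 3 interactions (1 without CpG sample 2), between 6 and 7 calls for CpG against unstimulated cells and for CpG plus IFNα against IFNα, and 8, 4 and 8 throughout for the other 3 comparisons. The sequence sharing between members, as the median share of windows also found in another gene, was 9.485% at 81 bases and 17.12% at 50 bases. The following differences changed sign and were not called before or after. Aim2 with IFNα added to CpG was 0.0177 with DESeq2 size factors, 0.0203 in DESeq2, 0.0595 without a filter, 0.0269 with only the groups compared and 0.125 with counts drawn down, and between -0.12 and 0.194 without single samples. The interaction of Ifi209 was 0.0177 with DESeq2 size factors, 0.020 in DESeq2, 0.0205 drawn down, 0.0677 with library size only, 0.0442 without a filter and between -0.114 and 0.0777 without single samples. Drawn down, Ifi209 with CpG plus IFNα against unstimulated cells was -0.177. Without single samples, Aim2 with IFNα was between -0.0221 and 0.408 and its interaction between -0.412 and 0.0192, Ifi207 with CpG plus IFNα against IFNα was between -0.378 (without IFNα sample 2) and 0.281 (without IFNα sample 3), and the interaction of Mndal was between -0.0023 and 0.342. With close copies summed, an alternative chosen after seeing the data, Ifi204 with CpG plus IFNα against IFNα was 0.659, and the interaction was 0.105 for Ifi209 and -0.0285 for Mndal. The cause of these shifts was not tested.

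With a replicate block, the number of members called stayed at 8, 7, 4, 8, 6 and 3 in the 6 comparisons, and the interaction of Ifi209 was 0.001. Of 18 pairs of samples with the same number, 5 correlated above 0.1. The 9 pairs among the stimulated groups were between 0.009 and 0.201 and those with unstimulated samples between -0.065 and 0.047. Since not every pair passed 0.1 and not every sample correlated best with its own number (most did among the stimulated groups, as a hint from the data and not the design), the samples were not treated as paired. Low UMI counts limit the fold changes of Ifi204, Ifi205 and Ifi207 in groups without IFNα and of Ifi208, Ifi213 and Ifi214 with CpG.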
